A study of Mus musculus with 12 samples.

Results

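The genes described here are 38 genes that carry glucose through glycolysis to lactate or to acetyl-CoA, together with the core of the pentose phosphate pathway. They were taken by symbol from a fixed list and are 38 of the 31099 rows of the count table. All 38 were counted deeply enough to be among the 18855 genes tested, so none was lost to the filter on low counts. Their values were read in 12 RNA libraries from wild type CD-1 mouse pups of both sexes at 3 days of age, 3 libraries from each of 4 sorted cell populations. PVAT progenitors and PVAT preadipocytes came from perivascular adipose tissue, the fat around the thoracic aorta. DPP4+ progenitors and ICAM1+ preadipocytes came from inguinal white adipose tissue (IWAT), a fat pad under the skin. No group carried a transgene or received a treatment. Each library is a pool of mice, and libraries with the same number share their mice across the 4 populations, per the labels. The sources used here do not give the surface markers that defined the perivascular sort.

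In glycolysis glucose is taken up by transporters, trapped as glucose 6-phosphate by hexokinase, committed by phosphofructokinase, split into trioses and oxidised to pyruvate. Pyruvate is then either reduced to lactate by lactate dehydrogenase and exported, or oxidised to acetyl-CoA by the mitochondrial pyruvate dehydrogenase complex, while the pentose phosphate branch makes NADPH and ribose. Thermogenic fat is known for its high use of glucose, and acetyl-CoA and NADPH feed both its oxidation and its fatty acid synthesis. Levels are given in CPM, a gene's counts per 1000000 counts of its library, scaled between libraries by trimmed mean of M-values (TMM) factors. Changes are log2 fold changes from 1 edgeR quasi-likelihood fit of all 12 libraries, and "called" means a Benjamini-Hochberg adjusted p under 0.05 over the 18855 genes.

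The labels were read against marker genes before the members. The 11 progenitor markers summed to 12026 to 13295 CPM in the DPP4+ libraries and 2174 to 2393 CPM in the ICAM1+ libraries, and to 2719 to 3118 CPM in the perivascular progenitors and 299 to 839.7 CPM in the perivascular preadipocytes. The 14 adipocyte markers were highest in the perivascular preadipocytes, at 6470.2 to 17065 CPM, and the 15 thermogenic markers likewise, at 388.7 to 898.8 CPM. The 10 preadipocyte markers overlapped between perivascular progenitors (4785 to 5504 CPM) and preadipocytes (5002 to 7917 CPM), with 3 called higher and 3 lower. Icam1 was at 90.3 to 102 CPM in the former and 30.4 to 52.9 CPM in the latter, against 485 to 507 CPM in ICAM1+ cells. Dpp4 was at 82.1 to 97.2 CPM in perivascular progenitors, against 1460.5 to 1593 CPM in DPP4+ cells. The 20 cell cycle genes also ran from low to high across the populations, with 314 to 367 CPM in the DPP4+ libraries, 822 to 856 CPM in the ICAM1+ libraries, and in perivascular cells 1165 to 1222 CPM at the progenitor and 1964 to 2761 CPM at the preadipocyte stage. Library totals ran from 15614628 to 25674461 counts. Because these are bulk libraries, fewer cells of a type and less RNA per cell cannot be told apart.

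The members' summed level was highest in the perivascular preadipocytes. It reached 7549 ± 2168 CPM there (SD, n = 3), against 3460 ± 44.4 CPM in the perivascular progenitors, 3177 ± 30.1 CPM in the ICAM1+ preadipocytes and 3622 ± 145 CPM in the DPP4+ progenitors. The 3 perivascular preadipocyte libraries spread from 5049 to 8889.8 CPM and none overlapped another group. The order of the other 3 groups rests on the scaling: with library totals in place of TMM factors the DPP4+ progenitors came last, at 2831 CPM. Perivascular preadipocyte library 1 stood between the progenitors and its own replicates. It was below both other libraries in 20 of the 21 members called higher in that population than in perivascular progenitors, at a median of 54.8% of their mean. In the 6 members called lower it was above both, at a median of 173%. Its adipocyte and thermogenic marker sums, 6470.2 and 388.7 CPM, were also the lowest of its group, and their part in the members' levels was not tested.

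**Figure D1:**
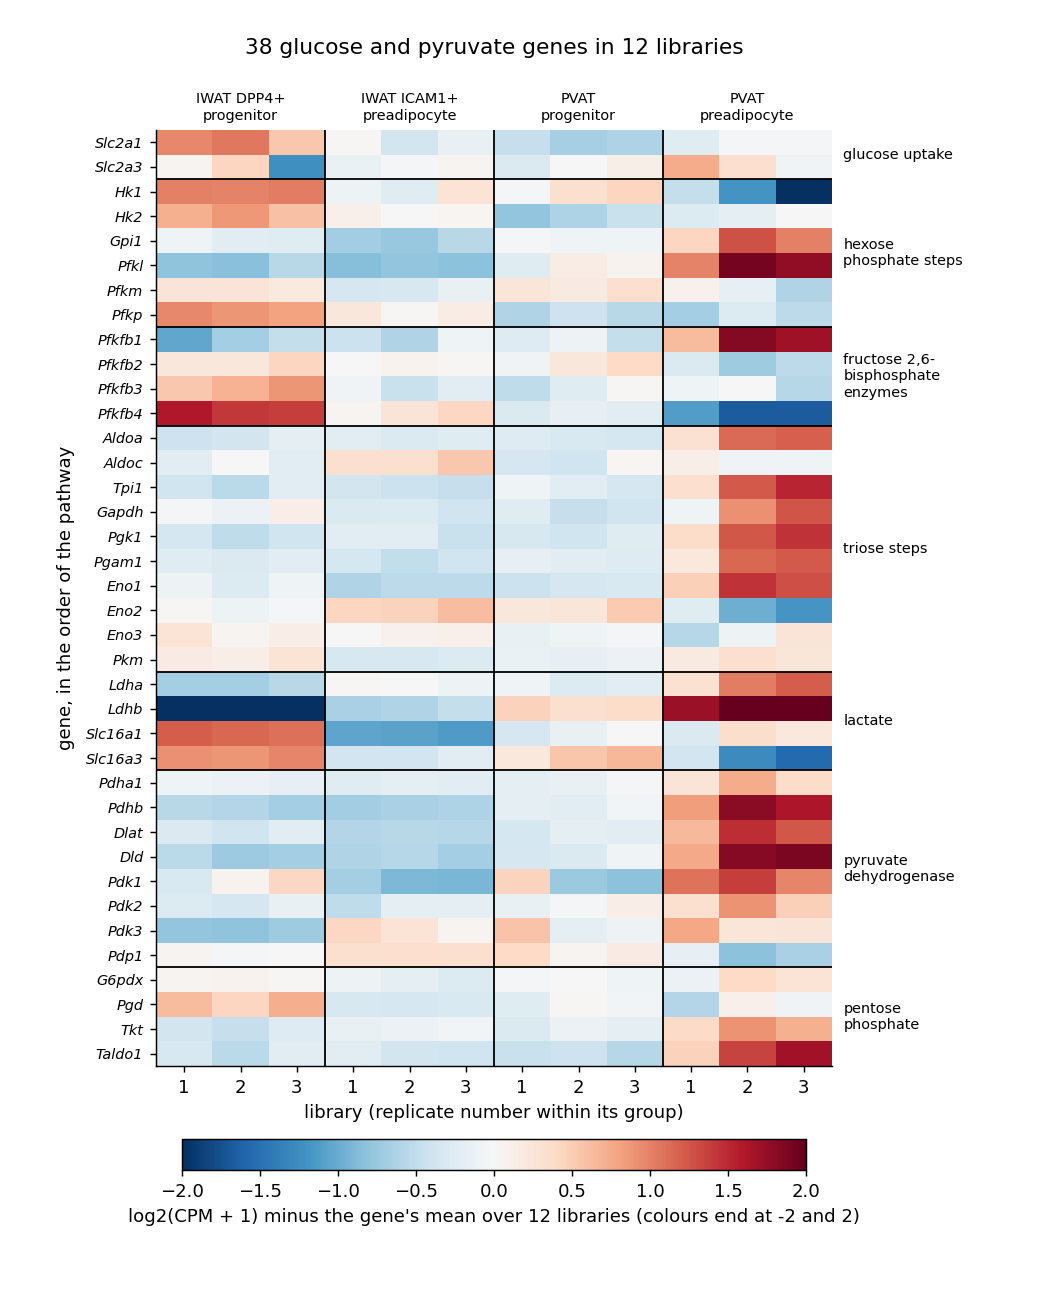
Heat map of the 38 members (rows, in pathway order and boxed by role) in the 12 libraries (columns, boxed by population). Colour is log2(CPM + 1) minus the gene's mean over the 12 libraries, from blue (-2 or below) to red (2 or above). Perivascular preadipocyte libraries 2 and 3 are the darkest red columns, library 1 is paler, and Hk1, Pfkfb4, Eno2, Slc16a3 and Pdp1 run the other way.

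The perivascular step compares the perivascular preadipocytes with the perivascular progenitors. Both were sorted at 3 days of age, so the comparison does not follow cells over time. Of the 38 members 21 were higher in perivascular preadipocytes and 6 were lower, where 16.8% and 16.1% of all genes tested were called in those directions (32.9% in all). The members' median log2 difference was 0.56, against -0.05 over all genes tested. The members called higher were 7 of the 10 triose-step genes, 6 of the 8 pyruvate dehydrogenase genes, Hk2, Gpi1, Pfkl, Pfkfb1, Ldha, Ldhb, Tkt and Taldo1. Those called lower were Hk1, Pfkfb2, Pfkfb4, Eno2, Slc16a3 and Pdp1. The libraries of the 2 groups did not overlap for 22 members that were higher and 7 that were lower, against 20.1% and 20.7% of all genes (40.8% in all).

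The step from DPP4+ to ICAM1+ cells in inguinal fat gave 2 members called higher, Ldhb and Pdk3, and 10 called lower, against 9.34% and 8.61% of all genes (17.9% in all). The members' median log2 difference was -0.14, against 0.02 over all genes. The libraries did not overlap for 7 members that were higher and 20 that were lower, against 22.9% and 21.0% of all genes (43.8% in all). The 10 called lower were Slc2a1, Hk1, Hk2, Pfkp, Pfkfb3, Pfkfb4, Pkm, Slc16a1, Slc16a3 and Pgd. With library totals in place of TMM factors, which moved the median of all genes from 0.02 to 0.40, the split was 7 higher and 6 lower, and the calls of Hk1, Hk2, Pfkp and Pkm were lost. Fitted on the 6 inguinal libraries alone, 6 members were higher and 17 lower. The shares of all genes called under these alternative settings are not given here, so these counts cannot be set against 17.9%.

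Between the preadipocytes of the 2 depots, 22 members were higher in the perivascular cells and 6 were lower, where 23.5% and 21.4% of all genes were called (44.9% in all). The median log2 difference was 0.74 over the members and 0.04 over all genes. For 21 members that were higher and 8 that were lower the libraries did not overlap, against 29.5% and 27.8% of all genes (57.2% in all). This comparison shares the perivascular preadipocyte libraries with the perivascular step above, so their agreement is not a second observation. Between the progenitors of the 2 depots, 3 members were higher in the perivascular cells (Pfkl, Ldhb and Pdk3) and 7 were lower (Slc2a1, Hk2, Pfkp, Pfkfb3, Pfkfb4, Slc16a1 and Pgd). Their share of 26.3% was near the 24.9% of all genes called (13.0% higher and 11.8% lower), and the median log2 difference was 0.01 over the members and 0.05 over all genes. The libraries did not overlap for 10 members that were higher and 14 that were lower, against 22.7% and 19.5% of all genes (42.3% in all). With library totals, which moved the median of all genes to 0.48, the split was 13 higher and 6 lower. Without perivascular preadipocyte library 1, 16 members were called. That library is in neither group but enters the shared estimate of spread, the scaling and the gene filter. For these alternative settings too, the shares of all genes called are not given here.

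Whether the step differed between depots was tested as an interaction, the perivascular change minus the inguinal change. It was called as more positive in perivascular fat for 22 members and more negative for 2, Eno2 and Pdp1, where 6.37% and 8.66% of all genes were called (15.0% in all). The median interaction log2 was 0.87 over the members and -0.003 over all genes. With library totals the split was 17 to 3, for which the share of all genes called is not given here. The 22 were 7 triose-step genes, Hk2, Gpi1, Pfkl, Pfkp, Slc2a1, Pfkfb1, Pfkfb3, Slc16a1, 5 genes of pyruvate dehydrogenase (Pdha1, Pdhb, Dlat, Dld and Pdk1), Pgd and Taldo1.

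**Figure D2:**
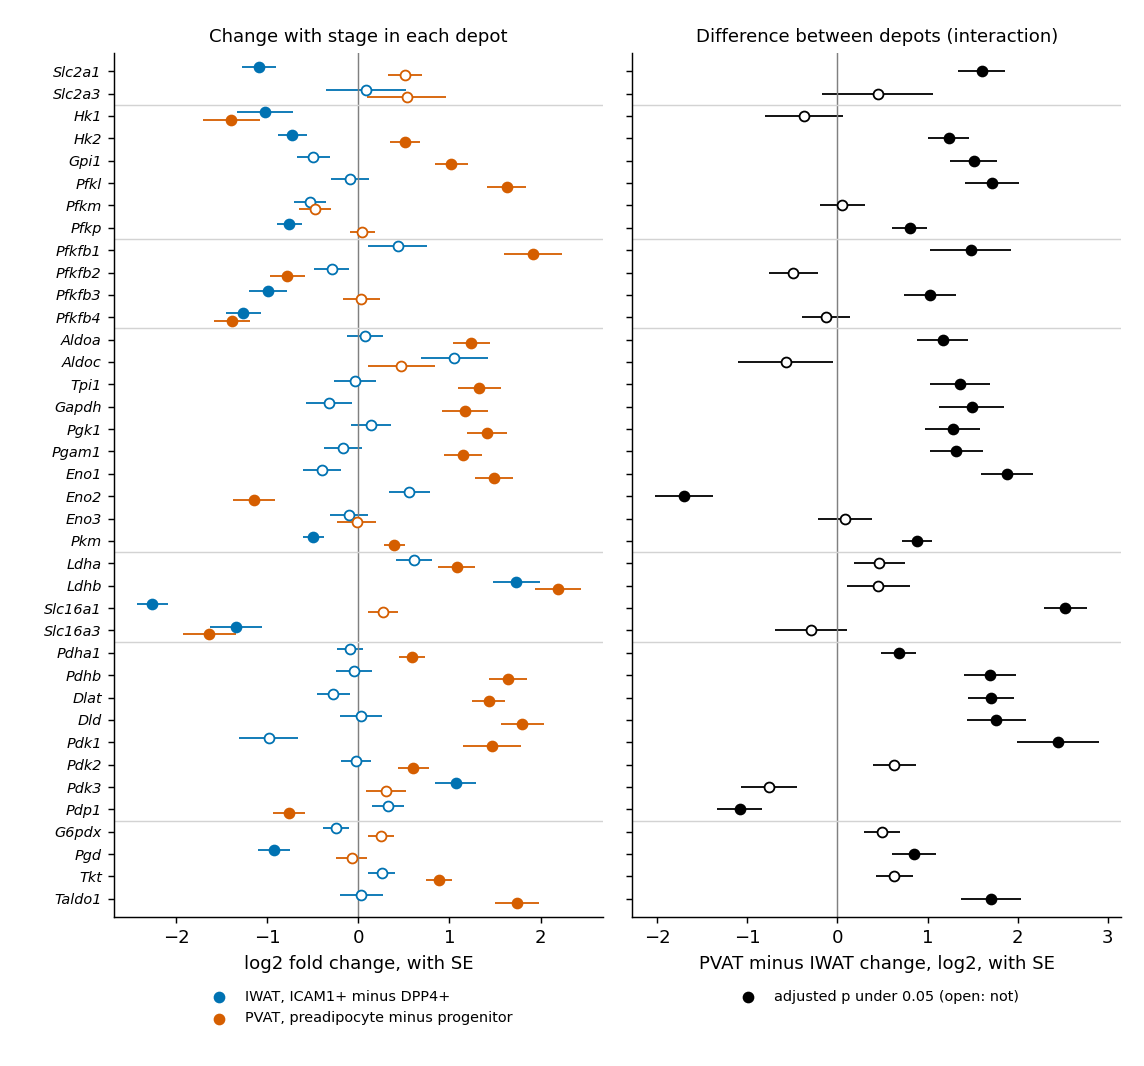
Left, the log2 fold change from progenitor to preadipocyte of each member in inguinal (blue) and perivascular (orange) fat; right, the interaction, the perivascular minus the inguinal change. Bars are standard errors, filled points have an adjusted p under 0.05, and the interaction was called for 24 members, 22 of them to the right of 0.

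Slc2a1 (chr4:119108711-119137983, plus strand, in mm10 like all gene positions given, with the gene bounds of GENCODE M21) encodes GLUT1, a glucose transporter of many cell types. Slc2a1 stood at 27.4, 29.4 and 20.2 CPM in libraries 1 to 3 of the DPP4+ progenitors and at 13.8, 10.3 and 12.1 CPM in the ICAM1+ preadipocytes. The perivascular progenitors had 9.60, 8.23 and 8.49 CPM and the perivascular preadipocytes 11.3, 13.1 and 13.2 CPM. The DPP4+ libraries were above all 9 others. Slc2a1 fell 2.13-fold from DPP4+ to ICAM1+ cells (log2 -1.09 ± 0.19 (SE), adjusted p = 0.00117) and was 2.92-fold lower in perivascular than in DPP4+ progenitors (log2 -1.55 ± 0.19 (SE), adjusted p = 6.7e-05). The perivascular step, at log2 0.51 ± 0.19 (SE), adjusted p = 0.0506, missed the threshold but was called in 6 of the alternative settings. The interaction was called (log2 1.60 ± 0.26 (SE), adjusted p = 0.00195). Markers of endothelial cells, which carry GLUT1, also summed highest in the DPP4+ libraries. In the inguinal step 0 of these markers were called higher and 1 lower. The calls were 0 and 4 in the perivascular step and 1 and 4 between progenitors. The 10 endothelial markers summed to 777 to 991 CPM in the DPP4+ libraries and to 76.7 to 365 CPM in the other 9, most of it from Tek, at 684 ± 60.8 CPM (SD, n = 3) in the DPP4+ libraries. Pecam1 and Cdh5 were at 38.7 ± 13.2 and 11.4 ± 5.10 CPM in the DPP4+ libraries and at 34.2 ± 7.66 and 3.97 ± 1.72 CPM in the perivascular progenitors. Their part in the Slc2a1 difference was not tested. Slc2a3, the GLUT3 transporter, ranged from 0.984 to 6.78 CPM and was called in none of the 5 comparisons by edgeR, with 0 unadjusted p under 0.05, or by DESeq2. The insulin-responsive transporter GLUT4 is not one of the members, but its gene Slc2a4 moved the other way from Slc2a1 in inguinal cells. Slc2a4 was at 1.14, 4.02 and 2.38 CPM in the DPP4+ and 11.4, 11.5 and 12.6 CPM in the ICAM1+ libraries (log2 2.24 ± 0.35 (SE), adjusted p = 6.0e-04). In perivascular cells it rose from 8.41, 10.7 and 10.3 CPM to 29.1, 51.7 and 39.7 CPM (log2 2.03 ± 0.32 (SE), adjusted p = 8.9e-04).

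Hexokinases phosphorylate glucose as it enters the cell, and the HK2 isoform is the one typical of insulin-sensitive tissues. Hk2 (chr6:82725025-82774454, minus strand) was at 24.0, 26.9 and 21.9 CPM in the DPP4+ and 15.3, 14.1 and 14.7 CPM in the ICAM1+ libraries. Its perivascular values were 7.85, 8.98 and 10.2 CPM in progenitors and 11.7, 12.5 and 14.4 CPM in preadipocytes. Progenitors and preadipocytes did not overlap in either depot, and the direction was opposite: Hk2 fell by 0.72 on the log2 scale in inguinal cells (adjusted p = 0.00718) and rose by 0.51 in perivascular cells (adjusted p = 0.0307), with an interaction of log2 1.23 ± 0.23 (SE), adjusted p = 0.00414. The perivascular rise was lost without perivascular progenitor library 1 or 2 or perivascular preadipocyte library 2 or 3, and with the replicate block (adjusted p = 0.0508), and its adjusted p ran from 0.0508 to 0.149 over all settings that ended the call. Hk1, chosen for a fuller account after its values were seen, encodes the broadly expressed isoform. It fell in both depots, from 100.01, 98.6 and 101 CPM to 45.9, 41.5 and 59.8 CPM in inguinal and from 48.5, 61.7 and 66.3 CPM to 35.1, 20.8 and 11.2 CPM in perivascular cells. The perivascular groups did not overlap, and the fall was 2.63-fold (log2 -1.39 ± 0.31 (SE), adjusted p = 0.00562). The inguinal fall (log2 -1.03 ± 0.31 (SE), adjusted p = 0.0354) was lost without any 1 of the 6 inguinal libraries or perivascular preadipocyte library 2, with library totals and with the replicate block (adjusted p 0.0514 to 0.141).

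Gpi1, the phosphoglucose isomerase that makes fructose 6-phosphate (chr7:34201330-34230336, minus strand), was at 98.1, 90.5 and 88.2 CPM in the DPP4+ and 64.5, 61.6 and 70.9 CPM in the ICAM1+ libraries. It was at 103, 98.3 and 98.7 CPM in perivascular progenitors and 141, 255 and 212 CPM in perivascular preadipocytes, which lay above the other 9 libraries. Its perivascular rise was 2.03-fold (log2 1.02 ± 0.18 (SE), adjusted p = 0.00169). The inguinal fall of Gpi1 (log2 -0.49 ± 0.18 (SE), adjusted p = 0.0848) missed the threshold but was called in 5 alternative settings, DESeq2 among them. Exons of Gpi1 overlap those of Gm26762 over 11.5% of their length. Phosphofructokinase commits the sugar to glycolysis and is assembled from liver (Pfkl), muscle (Pfkm) and platelet (Pfkp) subunits. Pfkl (chr10:77986947-78010083, minus strand) was at 41.6, 40.5 and 49.5 CPM in DPP4+ progenitors and 40.4, 42.2 and 41.0 CPM in ICAM1+ preadipocytes. Perivascular progenitors had 62.0, 81.4 and 76.8 CPM and perivascular preadipocytes 146, 280.2 and 254 CPM, so that every perivascular library was above every inguinal one. The difference was 5.50-fold between preadipocytes (log2 2.46 ± 0.22 (SE), adjusted p = 6.5e-06) and 1.67-fold between progenitors (log2 0.74 ± 0.21 (SE), adjusted p = 0.0215). The progenitor call was lost without DPP4+ library 1 or 2 or perivascular progenitor library 2 or 3, at adjusted p 0.0566 to 0.0774. Pfkp went the other way between depots: its 6 inguinal libraries lay between 52.4 and 101 CPM and its 6 perivascular ones between 31.9 and 42.7 CPM, called lower at both stages (-1.43 log2 in progenitors and -0.63 in preadipocytes). Its perivascular step was 0.04 ± 0.14 on the log2 scale (SE). The interaction of Pfkp (log2 0.80, adjusted p = 0.0174) was lost with library totals (adjusted p = 0.0804), without ICAM1+ library 2 (0.0604) and without perivascular preadipocyte library 2 (0.0568). Pfkm ranged from 14.1 to 28.0 CPM and was called in none of the 5 comparisons by edgeR. It had 2 unadjusted p under 0.05, those of the steps in the 2 depots, which were called in 8 (inguinal) and 6 (perivascular) of the alternative settings, DESeq2 among them.

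Within the family the subunits therefore stood in different proportions. Per kilobase of merged exon, Pfkl made up 30.5 ± 3.11% (SD, n = 3) of the 3 phosphofructokinase genes in the DPP4+ and 39.1% in the ICAM1+ libraries. In perivascular fat the share was 50.9% at the progenitor and 79.0% at the preadipocyte stage. All 4 comparisons of that share were between groups that did not overlap. For Hk2 among Hk1 and Hk2 the shares were 25.7%, 30.3%, 18.0% and 47.7% in the same order, and only the progenitor comparison and the perivascular step separated without overlap. Ldhb made up 8.94%, 17.6%, 31.8% and 49.5% of Ldha and Ldhb, again without overlap in any of the 4 comparisons. Of the 12 comparisons of these 3 shares 10 separated, each with a two-sided exact permutation p of 0.1, the smallest that 3 against 3 libraries allow, and 0.12 after adjustment over the 12. With the longest transcript as each gene's length the Hk2 shares fell to 15.9%, 19.1%, 10.7% and 34.1%, and the order of the groups was the same.

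**Figure D3:**
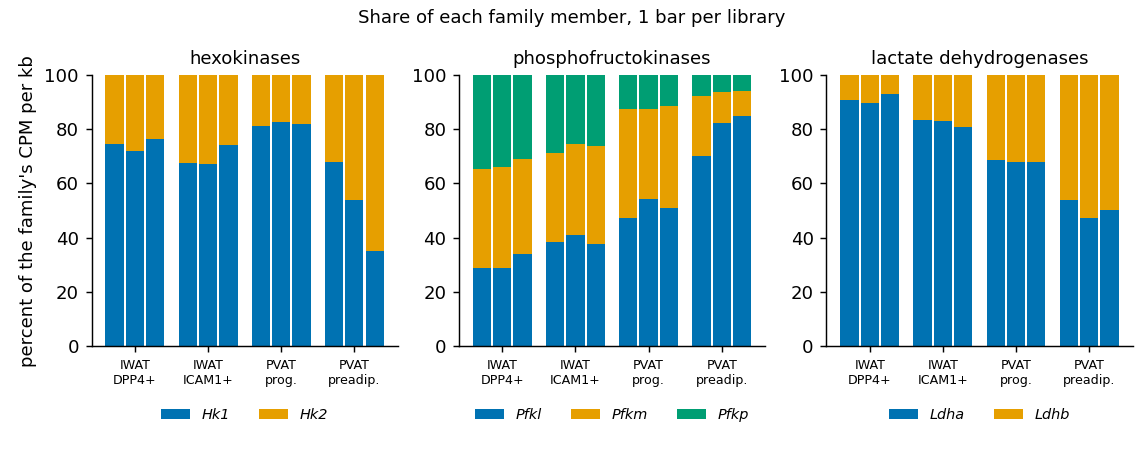
Stacked bars give, for each of the 12 libraries, the percent of the family's CPM per kilobase that came from each gene, for hexokinases, phosphofructokinases and lactate dehydrogenases. The Pfkl share averages 30.5% in DPP4+ progenitors and 79.0% in perivascular preadipocytes, and the Ldhb share 8.94% and 49.5%.

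The PFKFB enzymes make and break fructose 2,6-bisphosphate, the strongest activator of phosphofructokinase. The 4 genes differed in direction. Pfkfb3 (chr2:11471433-11554077, minus strand), whose product strongly favours synthesis, was at 32.5, 36.3 and 41.7 CPM in DPP4+ progenitors, above the 21.0, 15.9 and 18.8 CPM of the ICAM1+ preadipocytes (log2 -0.99 ± 0.21 (SE), adjusted p = 0.00448). Its perivascular values were 15.1, 18.4 and 22.5 CPM in progenitors and 20.6, 22.2 and 14.4 CPM in preadipocytes and overlapped. Pfkfb4 (chr9:108991778-109032228, plus strand) was at 47.1, 41.2 and 40.4 CPM in DPP4+ and 15.4, 18.1 and 20.2 CPM in ICAM1+ libraries. In perivascular cells Pfkfb4 was at 11.98, 13.2 and 12.5 CPM and then 6.34, 4.01 and 4.02 CPM. The 4 groups of Pfkfb4 did not overlap, and the gene fell 2.40-fold in the inguinal and 2.62-fold in the perivascular step (adjusted p = 4.7e-04 and 5.3e-04). Its interaction was -0.13 ± 0.27 on the log2 scale (SE; adjusted p = 0.779). Pfkfb1 (chrX:150588229-150643878, plus strand), the liver and muscle isoform, was low outside the perivascular preadipocytes: 3.00, 4.10 and 4.92 CPM in DPP4+, 5.09, 4.41 and 6.73 CPM in ICAM1+ and 5.83, 6.62 and 4.92 CPM in perivascular progenitor libraries. The perivascular preadipocytes held 11.7, 28.2 and 25.6 CPM, a 3.77-fold rise (log2 1.91 ± 0.32 (SE), adjusted p = 0.00113). Pfkfb2, the heart isoform, ranged from 5.18 to 12.7 CPM and was called lower in perivascular preadipocytes than in progenitors (-0.78 log2) and than in ICAM1+ cells (-0.60 log2). The first call was lost when only the perivascular libraries were fitted (adjusted p = 0.0701). The second was lost without any 1 of the ICAM1+ libraries or without perivascular preadipocyte library 2, and with library totals (adjusted p 0.0502 to 0.105). Exons of Pfkfb2 overlap other genes over 19.5% of their length. The interactions of Pfkfb1 and Pfkfb3 were called at adjusted p = 0.0442 and 0.0327. With the replicate block they reached 0.0588 and 0.0617, and removing any 1 of 9 and of 6 libraries also ended them, at up to 0.120 and 0.0994.

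The triose steps run from aldolase to pyruvate kinase. Here Aldoa, Tpi1, Gapdh, Pgk1, Pgam1, Eno1 and Pkm were called higher in perivascular preadipocytes both than in their progenitors and than in ICAM1+ preadipocytes, comparisons that share those libraries. Of the 10 genes 7 were called higher, 1 was called lower and 2 were not called in each. Enolase 1 (chr4:150236721-150248879, plus strand), which makes phosphoenolpyruvate, was at 272, 239.7 and 273 CPM in DPP4+ and 192, 201 and 201 CPM in ICAM1+ libraries. It rose from 217, 229.9 and 235 CPM to 404, 792 and 715 CPM in perivascular cells, a 2.80-fold change (log2 1.49 ± 0.21 (SE), adjusted p = 4.8e-04), with every perivascular preadipocyte library above the other 9. Tpi1 (chr6:124810586-124814296, minus strand), triose phosphate isomerase, was at 192, 175 and 216 CPM in DPP4+ and 196, 188 and 185 CPM in ICAM1+ cells. Perivascular progenitors had 238, 218 and 200.2 CPM of Tpi1 and preadipocytes 321, 596 and 729 CPM, again without overlap (log2 1.33 ± 0.24 (SE), adjusted p = 0.00167). The perivascular rises of the other genes called were 1.24 log2 for Aldoa, 1.17 for Gapdh, 1.42 for Pgk1, 1.15 for Pgam1 and 0.39 for Pkm. For Gapdh, perivascular preadipocyte library 1, at 251 CPM, lay inside the range of the DPP4+ libraries, and the call was lost when only the perivascular libraries were fitted (adjusted p = 0.0506). Gapdh is often used as a reference gene, yet its mean was 2.18-fold higher in perivascular than in ICAM1+ preadipocytes.

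None of these 7 genes was called between the progenitors of the 2 depots by edgeR, where 1 had an unadjusted p under 0.05, and 1 was called by DESeq2. Pkm was called lower in perivascular progenitors in 7 alternative settings, DESeq2 among them, and Gapdh in 3. Of the 7, only Pkm was called in the inguinal step by the main fit (log2 -0.49 ± 0.12 (SE), adjusted p = 0.0101). Alternative settings also called Eno1 (4 settings) and Gapdh (2 settings) lower in that step. Pkm, pyruvate kinase of muscle and most other tissues, thus moved in opposite directions in the 2 depots, and its interaction was log2 0.89 ± 0.16 (SE), adjusted p = 0.00408. Its inguinal fall was lost without DPP4+ library 3 or ICAM1+ library 1 or 2, and was -0.12 log2 with library totals (adjusted p = 0.478). Its perivascular rise was lost without any 1 perivascular progenitor library or perivascular preadipocyte library 2 (adjusted p of at most 0.143). Exons of Pkm overlap those of Gm49759 over 15.3% of their length. Pgk1's interaction (1.28 log2) was lost without ICAM1+ library 3 (adjusted p = 0.0507). Eno2 (chr6:124760053-124769673, minus strand), the neuronal enolase, ran against Eno1. Eno2 was at 18.8, 17.2 and 18.2 CPM in DPP4+ and 25.2, 25.9 and 28.7 CPM in ICAM1+ libraries. It fell from 21.9, 21.9 and 27.0 CPM in perivascular progenitors to 15.5, 8.85 and 7.62 CPM in perivascular preadipocytes (log2 -1.15 ± 0.23 (SE), adjusted p = 0.00312), without overlap, and its interaction was -1.71 ± 0.32 on the log2 scale (SE). Aldoc, the brain aldolase, reached at most 1.80 CPM, and Eno3, the muscle enolase, lay between 6.39 and 12.2 CPM. Neither was called in any of the 5 comparisons by edgeR or DESeq2, with 2 unadjusted p under 0.05 for Aldoc and 0 for Eno3. With limma-voom and library weights Aldoc was called in 2 comparisons and Eno3 in 0. Genes nearly identical in sequence to Gapdh and Eno1 elsewhere in the genome hold counts equal to 21.6% and 29.8% of theirs, so reads may have been split between them. Adding those counts back moved no member's log2 difference by more than 0.04.

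Lactate dehydrogenase interconverts pyruvate and lactate, and its A subunit is typical of lactate-producing and its B subunit of lactate-using tissues. Ldha (chr7:46841475-46855627, plus strand) was at 373, 372 and 408 CPM in DPP4+ progenitors and 604, 600.3 and 558 CPM in ICAM1+ preadipocytes. It was at 569, 495 and 516 CPM in perivascular progenitors and 735, 1218 and 1381 CPM in perivascular preadipocytes. The groups of each step did not overlap. The perivascular rise of Ldha was called (log2 1.08 ± 0.20 (SE), adjusted p = 0.00208), and the inguinal one, log2 0.61 ± 0.20 (SE), adjusted p = 0.0515, was not, although 10 alternative settings called it. Ldhb (chr6:142490249-142507957, minus strand) was at 18.4, 20.3 and 14.8 CPM in DPP4+ and 56.4, 58.1 and 63.5 CPM in ICAM1+ libraries. Its perivascular values were 123, 111 and 115 CPM in progenitors and 297, 639.5 and 653 CPM in preadipocytes. The 4 groups lay in that order with no overlap between any neighbours. Ldhb was the only member called higher in both steps and had the members' largest change between depots, 8.93-fold between preadipocytes (log2 3.16 ± 0.26 (SE), adjusted p = 3.7e-06) and 6.52-fold between progenitors (log2 2.70 ± 0.26 (SE), adjusted p = 1.1e-05). It rose 3.33-fold in the inguinal step (log2 1.73 ± 0.25 (SE), adjusted p = 3.9e-04) and 4.56-fold in the perivascular step (log2 2.19 ± 0.25 (SE), adjusted p = 1.6e-04). The interaction of Ldhb was not called (0.45 ± 0.35 log2, SE; adjusted p = 0.394). It was called in 3 alternative settings, at log2 0.64 to 0.76, among them the fit without perivascular preadipocyte library 1. A near-identical gene copy of Ldhb holds counts equal to 10.2% of its own.

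Lactate leaves or enters cells through monocarboxylate transporters. Slc16a1 (chr3:104638668-104658462, plus strand), which encodes the widely expressed MCT1, was at 304, 293 and 283 CPM in DPP4+ progenitors and 62.6, 61.9 and 59.3 CPM in ICAM1+ preadipocytes. Perivascular progenitors had 103, 117 and 131 CPM and perivascular preadipocytes 107, 168 and 151 CPM. Every DPP4+ library was above, and every ICAM1+ library below, all perivascular ones. The depot difference of Slc16a1 thus had opposite signs at the 2 stages, lower in perivascular than in DPP4+ progenitors (log2 -1.32 ± 0.17 (SE), adjusted p = 9.3e-05) and 2.31-fold higher in perivascular than in ICAM1+ preadipocytes (log2 1.21 ± 0.17 (SE), adjusted p = 1.5e-04). Its interaction was the largest among the members (log2 2.53 ± 0.24 (SE), adjusted p = 4.1e-05). The perivascular step was 0.27 ± 0.17 log2 (SE; adjusted p = 0.223), and the 2 groups overlapped. That step was called as a rise in 2 alternative settings, limma-voom with library weights and the fit without perivascular preadipocyte library 1. Slc16a3 (chr11:120948480-120960868, plus strand), the MCT4 exporter of cells with high glycolysis, was at 22.6, 22.0 and 23.6 CPM in DPP4+ and 8.64, 8.56 and 9.71 CPM in ICAM1+ libraries. It went from 13.5, 17.4 and 18.9 CPM in perivascular progenitors to 8.55, 4.16 and 3.27 CPM in perivascular preadipocytes. The gene fell without overlap in both steps (-1.34 log2, adjusted p = 0.00556, and -1.64 log2, adjusted p = 0.00168).

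**Figure D4:**
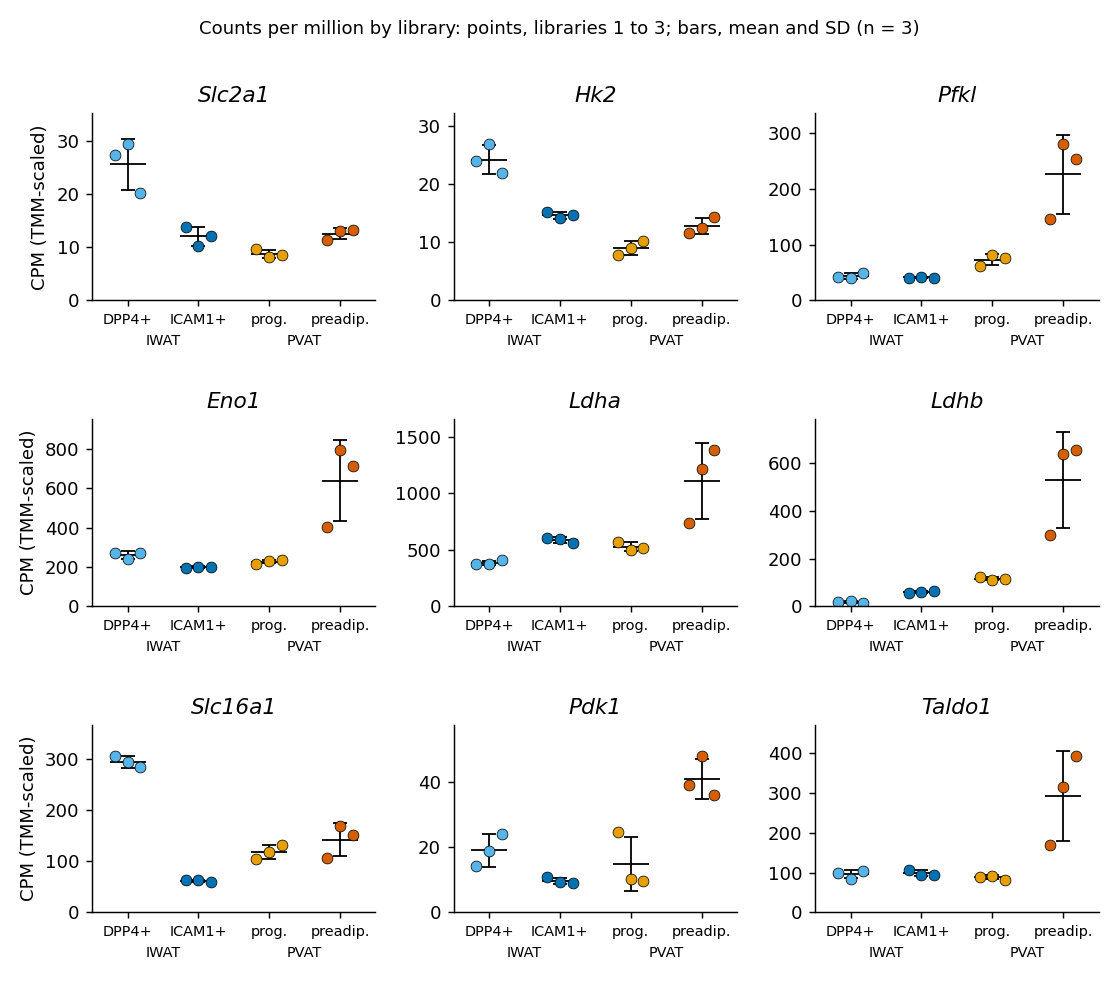
CPM of 9 members in each library (points, libraries 1 to 3 from left to right), with the mean and SD of 3 libraries (bars); each axis starts at 0. Slc2a1, Hk2 and Slc16a1 are highest in the DPP4+ libraries, and the other 6 in the perivascular preadipocytes, where library 1 is the lowest point for Pfkl, Eno1, Ldha, Ldhb and Taldo1.

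The promoters of 5 of these genes are shown to set the letters before their starts beside their changes: Pfkl, Eno1, Ldha and Ldhb rose in the perivascular step, and Slc16a1 fell in the inguinal one. The sequences are the 250 bases before a RefSeq start in GRCm38.p6, the assembly of mm10, read 5′ to 3′ on the gene's strand. They are chr7:46845554-46845803 (plus strand) for Ldha, chr6:142507958-142508207 (minus strand) for Ldhb, chr3:104638414-104638663 (plus strand) for Slc16a1, chr10:78009808-78010057 (minus strand) for Pfkl and chr4:150236458-150236707 (plus strand) for Eno1. Capitals mark matches, on either strand, to the hypoxia response cores ACGTG and GCGTG, the E-box CACGTG bound by MYC and ChREBP, and the estrogen-related receptor element AAGGTCA.
Ldha: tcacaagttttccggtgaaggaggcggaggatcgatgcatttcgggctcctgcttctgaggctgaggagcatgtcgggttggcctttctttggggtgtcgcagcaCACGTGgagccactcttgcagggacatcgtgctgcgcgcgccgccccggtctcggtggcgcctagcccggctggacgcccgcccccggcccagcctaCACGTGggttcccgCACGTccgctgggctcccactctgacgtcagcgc
Ldhb: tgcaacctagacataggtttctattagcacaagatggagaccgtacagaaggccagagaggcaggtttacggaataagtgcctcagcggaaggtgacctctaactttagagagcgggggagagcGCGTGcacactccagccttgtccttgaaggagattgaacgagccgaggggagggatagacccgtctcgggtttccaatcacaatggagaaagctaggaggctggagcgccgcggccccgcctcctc
Slc16a1: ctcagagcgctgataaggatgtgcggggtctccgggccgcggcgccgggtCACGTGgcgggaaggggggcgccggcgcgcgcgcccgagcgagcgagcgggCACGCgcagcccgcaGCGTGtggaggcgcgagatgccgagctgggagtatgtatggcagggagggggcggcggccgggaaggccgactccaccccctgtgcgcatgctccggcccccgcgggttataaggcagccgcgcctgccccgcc
Pfkl: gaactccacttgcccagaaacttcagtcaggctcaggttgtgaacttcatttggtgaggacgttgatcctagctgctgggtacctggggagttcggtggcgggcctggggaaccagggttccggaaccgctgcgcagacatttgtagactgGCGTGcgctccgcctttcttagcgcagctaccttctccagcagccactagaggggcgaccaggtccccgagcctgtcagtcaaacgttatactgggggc
Eno1: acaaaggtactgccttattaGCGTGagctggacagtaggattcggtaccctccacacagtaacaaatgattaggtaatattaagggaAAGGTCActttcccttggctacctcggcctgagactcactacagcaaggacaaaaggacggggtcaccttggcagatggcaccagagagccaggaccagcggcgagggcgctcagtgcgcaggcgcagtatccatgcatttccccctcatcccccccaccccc
CACGTG holds ACGTG on each strand, so those matches overlap. The Ldha window held CACGTG at 145 and 48 bases before the start and ACGTG at 34 bases before it, while the Ldhb window held 1 GCGTG, at 126 bases before its start. Slc16a1 had CACGTG at 200 bases before the start, and Eno1 AAGGTCA at 163 bases before it. For Ldha and Eno1 the window farthest upstream is shown: the other Ldha window held 1 GCGTG and neither ACGTG nor CACGTG, and the other 2 Eno1 windows held GCGTG and no AAGGTCA. RefSeq windows were found for 36 of the 38 members, 56 in all, since some genes have several starts. Over the same 250 bases, ACGTG was present in 19 of the 56 member windows (33.9%) and in 16.6% of all 32851 windows, GCGTG in 30 (53.6%) and 28.2%, CACGTG in 6 (10.7%) and 6.02%, and AAGGTCA in 2 (3.57%) and 4.08%. The windows of 1 gene can overlap, and a match describes letters and not binding.

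Pyruvate dehydrogenase joins glycolysis to the mitochondrial citrate cycle and is built from E1 (Pdha1 and Pdhb), E2 (Dlat) and E3 (Dld) subunits. All 4 subunit genes were called higher in perivascular preadipocytes than in perivascular progenitors and than in ICAM1+ preadipocytes, and none was called in the inguinal step or between progenitors by edgeR or DESeq2 (0 and 1 of the 4 had an unadjusted p under 0.05). Between progenitors, alternative settings called Pdhb and Dld higher in perivascular cells (5 settings each) and Pdha1 (1 setting). In the inguinal step 2 settings called Dlat lower. Pdha1 (chrX:160122209-160138413, minus strand) was at 128, 126 and 122 CPM in DPP4+ progenitors and 115, 121 and 118 CPM in ICAM1+ preadipocytes. It was at 119.5, 123 and 134 CPM in perivascular progenitors and 163, 228 and 176 CPM in perivascular preadipocytes. The latter were above the other 9 libraries (log2 0.59 ± 0.14 (SE), adjusted p = 0.00767), a call lost when only the perivascular libraries were fitted (adjusted p = 0.0759). The interaction of Pdha1, at 0.68 log2 (adjusted p = 0.0379), was lost without any 1 library other than perivascular preadipocyte libraries 1 and 3, with library totals and with the replicate block (adjusted p 0.0586 to 0.142). Exons of Pdha1 overlap those of Map3k15 over 16.1% of their length. The other subunits changed more. Pdhb (chr14:8165996-8173025, minus strand) was at 96.5, 94.8 and 88.7 CPM in DPP4+ and 87.4, 90.4 and 92.8 CPM in ICAM1+ libraries. Its perivascular values rose from 124, 122 and 136 CPM to 254, 501 and 440.0 CPM, 3.12-fold (log2 1.64 ± 0.21 (SE), adjusted p = 2.6e-04). Dlat (chr9:50634633-50659780, minus strand) was at 85.4, 79.3 and 90.9 CPM in DPP4+ and 69.6, 71.6 and 70.2 CPM in ICAM1+ cells. From 82.4, 91.8 and 89.6 CPM in perivascular progenitors Dlat rose to 166, 296 and 249.5 CPM in perivascular preadipocytes, 2.70-fold (log2 1.43 ± 0.18 (SE), adjusted p = 2.8e-04). Dld (chr12:31331277-31351453, minus strand), whose product also serves other dehydrogenase complexes, was at 103, 90.6 and 92.9 CPM in DPP4+ and 98.7, 100.35 and 93.6 CPM in ICAM1+ libraries. It rose from 119, 123 and 143 CPM to 255, 530.2 and 554 CPM in perivascular cells, 3.48-fold (log2 1.80 ± 0.24 (SE), adjusted p = 3.6e-04). For all 4 subunits the perivascular preadipocyte libraries overlapped no other group.

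The kinases that switch the complex off and the phosphatase that switches it on did not move as 1 group. Pdk1 (chr2:71873224-71903858, plus strand) was at 14.1, 18.8 and 24.0 CPM in DPP4+ and 10.7, 9.14 and 9.00 CPM in ICAM1+ libraries. Its perivascular progenitor values, 24.5, 10.2 and 9.68 CPM, were spread by library 1, and its perivascular preadipocyte values, 39.1, 47.9 and 35.9 CPM, lay above all others. Pdk1 rose 2.77-fold in the perivascular step (log2 1.47 ± 0.32 (SE), adjusted p = 0.00501), and its interaction was log2 2.45 ± 0.46 (SE), adjusted p = 0.00414. The inguinal step of Pdk1 was -0.98 ± 0.32 log2 (SE; adjusted p = 0.0543) and was called in 10 alternative settings. Pdk2, the broadly expressed kinase, was higher in perivascular preadipocytes than in ICAM1+ preadipocytes (0.88 log2) and perivascular progenitors (0.60 log2). The latter call was lost without perivascular progenitor library 1 or 2, without perivascular preadipocyte library 2 and with the perivascular libraries alone (adjusted p 0.0507 to 0.0942). Pdk3 differed instead at the DPP4+ progenitors, which had 14.3 to 15.3 CPM against 22.6 to 44.3 CPM in the other 9 libraries, and rose in the inguinal step (log2 1.07 ± 0.22 (SE), adjusted p = 0.00482). Pdp1, the activating phosphatase, ran from 26.5 to 36.0 CPM in the other populations and from 14.9 to 24.0 CPM in perivascular preadipocytes (log2 -0.76 ± 0.18 (SE), adjusted p = 0.00648), a call lost with the perivascular libraries alone (adjusted p = 0.0643). The interaction of Pdp1 was -1.09 ± 0.25 log2 (SE).

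Among the pentose phosphate members, the non-oxidative Tkt and Taldo1 were called higher in the perivascular step. The oxidative G6pdx and Pgd were not called in it by the main fit, although 3 alternative settings called G6pdx higher. Pgls, an oxidative gene outside the members, also rose in that step, as given below. G6pdx (chrX:74409483-74429194, minus strand), the glucose 6-phosphate dehydrogenase that opens the NADPH-making branch, was at 79.5, 81.0 and 78.3 CPM in DPP4+ and 71.4, 67.4 and 63.0 CPM in ICAM1+ libraries. It was at 74.4, 75.9 and 72.1 CPM in perivascular progenitors and 70.5, 102 and 92.6 CPM in perivascular preadipocytes, which overlapped every other group. Exons of G6pdx overlap those of Ikbkg over 13.6% of their length. Its only call in the main fit was 0.39 log2 between preadipocytes (adjusted p = 0.0388). That call was lost without any 1 library other than perivascular preadipocyte library 1 and with the replicate block (adjusted p 0.0522 to 0.155). The interaction of G6pdx was called in 3 alternative settings, and its inguinal step in 1. Pgd, the next NADPH-making enzyme, was highest in DPP4+ progenitors, at 122 to 149.9 CPM against 59.8 to 97.4 CPM elsewhere, and fell in the inguinal step (log2 -0.92 ± 0.17 (SE), adjusted p = 0.00225). It was also lower in perivascular than in DPP4+ progenitors (-0.69 log2), which was -0.25 with library totals (adjusted p = 0.272). Its interaction (adjusted p = 0.0339) was lost in 12 settings, among them the removal of any 1 of 9 libraries and the replicate block, at adjusted p up to 0.0994. The non-oxidative enzymes transketolase and transaldolase return pentoses to glycolysis. Tkt lay between 131.7 and 189 CPM in perivascular preadipocytes and between 73.0 and 96.9 CPM in the other 9 libraries (log2 0.88 ± 0.15 (SE), adjusted p = 0.00108). Taldo1 (chr7:141392199-141402968, plus strand) was at 97.9, 84.2 and 105 CPM in DPP4+ and 106, 94.4 and 92.5 CPM in ICAM1+ libraries. From 89.6, 91.4 and 81.8 CPM in perivascular progenitors it rose 3.34-fold to 169, 315 and 393 CPM in perivascular preadipocytes, above all other libraries (log2 1.74 ± 0.24 (SE), adjusted p = 4.7e-04).

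Other genes of the pathway were read from 5 fixed lists, whose counts stand against the 32.9% of all genes called in the perivascular step, 17.9% in the inguinal step, 44.9% between preadipocytes and 24.9% between progenitors. Of 36 tested genes for further enzymes and carriers, 14 were higher and 1 lower in the perivascular step, 6 and 1 in the inguinal step, 15 and 5 between preadipocytes and 5 and 4 between progenitors. The inguinal and progenitor shares, 19.4% and 25.0%, were near those of all genes. Mitochondrial pyruvate entry followed the dehydrogenase subunits: the carrier genes Mpc1 and Mpc2 were called higher in the perivascular step (1.10 and 1.31 log2), as was Pdhx, the E3-binding protein of the complex (1.70 log2). Neither carrier was called in the inguinal step (-0.10 and -0.01 log2, 0 unadjusted p under 0.05, 0 calls by DESeq2). The fasting-induced kinase Pdk4 was at 45.1, 52.4 and 44.8 CPM in DPP4+ and 43.9, 44.6 and 48.8 CPM in ICAM1+ libraries. It went from 21.0, 26.5 and 25.6 CPM to 42.5, 93.1 and 95.3 CPM in perivascular cells (log2 1.66 ± 0.25 (SE), adjusted p = 7.1e-04). Pck1, which makes phosphoenolpyruvate for glyceroneogenesis, had the list's largest perivascular rise (4.18 log2), ahead of Pgls (2.12 log2) and Slc2a4. Pcx, pyruvate carboxylase, was higher in perivascular cells at both stages (1.63 and 3.11 log2).

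Cytosolic NADH made by glyceraldehyde phosphate dehydrogenase is reoxidised through the glycerol phosphate and malate-aspartate shuttles. Of 9 shuttle genes 7 were higher and 1 lower in the perivascular step, and 0 and 2 in the inguinal step by edgeR, where 3 had an unadjusted p under 0.05 and DESeq2 also called 2. Between preadipocytes 7 were higher and 1 lower, and between progenitors 1 was higher and 2 lower. In the perivascular step 88.9% of the list was called and in the inguinal step 22.2%, against 32.9% and 17.9% of all genes. Gpd1, cytosolic glycerol phosphate dehydrogenase, rose 6.65-fold in perivascular cells (log2 2.73 ± 0.46 (SE), adjusted p = 0.00117), Mdh1 4.09-fold (log2 2.03 ± 0.29 (SE), adjusted p = 5.1e-04), and the aspartate-glutamate carrier Slc25a13 2.73-fold (log2 1.45 ± 0.27 (SE), adjusted p = 0.00231). In inguinal cells Slc25a13 fell (-2.22 log2), as did Got1 (-0.62 log2). Of 19 tested glycogen genes 5 were higher and 7 lower in the perivascular step, 3 and 4 in the inguinal step, 7 and 7 between preadipocytes and 2 and 2 between progenitors. Those are shares of 63.2%, 36.8%, 73.7% and 21.1% called, the last near the 24.9% of all genes. Glycogen synthase Gys1 and the primer Gyg were among the genes that rose in the perivascular step (1.09 and 1.24 log2), and the phosphorylase Pygl was among those that fell (-0.90 log2).

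Hypoxia response genes outside glycolysis were called in both directions. Of 24 tested, 3 were higher and 7 lower in the perivascular step, 2 and 2 in the inguinal step, 4 and 6 between preadipocytes and 1 and 4 between progenitors. The shares called, 41.7%, 16.7%, 41.7% and 20.8%, stand beside 32.9%, 17.9%, 44.9% and 24.9% of all genes, and only that of the perivascular step was above. Adm, adrenomedullin, fell in the perivascular step (log2 -1.75 ± 0.15 (SE), adjusted p = 1.5e-05), and Fam162a and Bnip3 rose (1.62 and 1.31 log2). Hif1a, which encodes the oxygen-regulated subunit of the hypoxia factor, was called in none of the 5 comparisons by edgeR (2 unadjusted p under 0.05) or DESeq2. With limma-voom and library weights Hif1a was called in 3 of the 5. It was at 72.4, 105 and 112 CPM in DPP4+, 71.9, 76.8 and 61.1 CPM in ICAM1+, 102, 62.8 and 71.8 CPM in perivascular progenitor and 128, 102 and 74.7 CPM in perivascular preadipocyte libraries. Of 14 sugar-responsive and MYC-related regulators, 6 were higher and 2 lower in the perivascular step, 7 and 4 between preadipocytes and 4 and 4 between progenitors. Those are 57.1%, 78.6% and 57.1% called, against 32.9%, 44.9% and 24.9% of all genes. In the inguinal step edgeR called 0 of them, 2 had an unadjusted p under 0.05 and DESeq2 called 2. Myc was at 167, 132 and 138 CPM in DPP4+ and 142, 136 and 146 CPM in ICAM1+ libraries. It rose from 92.1, 96.8 and 87.2 CPM to 148, 185 and 151 CPM in perivascular cells (log2 0.81 ± 0.14 (SE), adjusted p = 0.00139). Mlxipl, which encodes the sugar sensor ChREBP, and the coactivator Ppargc1a rose with it (2.25 and 2.99 log2). The 12 dissociation and early response genes, which digestion can induce, summed to 8289 to 9283 CPM in ICAM1+ and 3403 to 5837 CPM in perivascular preadipocytes, and their part in the depot differences was not tested.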

How the data were processed

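The 12 RNA libraries were made with a low-input SMART-Seq kit and poly(A) selection after digestion and cell sorting, per the labels' protocols. STAR 2.5.2a, mm10 and DESeq2 1.26.0 are named in the submitters' processing notes; for the counting tool, its annotation and its use of strand, nothing was given in the sources used here. Values come from the deposited raw counts per gene, with columns matched to samples by name and 0 columns left over. The authors' normalised signal table and their regularised log2 table, both deposited, were not used for any value here.

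Counts were fitted with edgeR 4.0.16 (TMM factors, filterByExpr with a minimum count of 10, glmQLFit and glmQLFTest, 1 mean per group, all 12 libraries), with two-sided tests and Benjamini-Hochberg adjustment over 18855 genes. Alternatives were library totals, DESeq2, limma-voom with library weights, other filters, the 2 groups of a comparison alone, a replicate block, leaving out each library, and, chosen after seeing the data, leaving out 3 libraries that stood apart. The fits were tested on simulated data. Gene positions, exon overlaps and lengths are from GENCODE M21, in which 31074 of the 31099 identifiers occur. Copies were matched at 95% identity over 200 bases. CPM per kilobase used merged exons.

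Same-numbered libraries come from the same pools of mice, per the labels, so the numbers pair the libraries. Their deviations from group means correlated at -0.213 to 0.153 over 18 same-numbered pairs (median 0.0093) and -0.197 to 0.273 over 36 others. No 2 libraries of a group agreed within sampling noise. Each value is that of a pool, so p-values measure the spread between pools.

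The members and lists were chosen with earlier results of these data known. The value in every library is given for members called in at least 1 comparison with an absolute log2 fold change of at least 1 and 10 CPM or more where higher (at most 16, by size), and for Slc2a1, Hk2, Pfkfb3, Ldha, Ldhb, Pdha1 and G6pdx. Genes of the pathway lists are named from the up to 4 called genes of largest change per comparison, with at least 5 CPM where higher. Slc2a4, Pdk4, Mpc1, Mpc2, Hif1a and Myc are given in any case. Hk1 and the marker genes Tek, Pecam1, Cdh5, Icam1 and Dpp4 were named after their values were seen.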

Additional observations from a re-analysis of the deposited data

Results flagged for a closer look

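The change from progenitor to preadipocyte differed between perivascular and inguinal fat for 24 members, by the interaction term of the edgeR fit at an adjusted p under 0.05. Of all genes tested 15.0% were called, 6.37% as more positive in perivascular fat and 8.66% as more negative. Values are the perivascular minus the inguinal change on the log2 scale. In glucose uptake and the hexose steps they were 1.60 for Slc2a1, 1.23 for Hk2, 1.51 for Gpi1, 1.72 for Pfkl and 0.80 for Pfkp, and among the fructose 2,6-bisphosphate enzymes 1.48 for Pfkfb1 and 1.02 for Pfkfb3. The triose steps gave 1.17 for Aldoa, 1.36 for Tpi1, 1.49 for Gapdh, 1.28 for Pgk1, 1.32 for Pgam1, 1.89 for Eno1, 0.89 for Pkm and -1.71 for Eno2. Slc16a1 had 2.53. The pyruvate dehydrogenase genes had 0.68 for Pdha1, 1.69 for Pdhb, 1.70 for Dlat, 1.77 for Dld, 2.45 for Pdk1 and -1.09 for Pdp1, and the pentose phosphate genes 0.85 for Pgd and 1.71 for Taldo1. The calls of Pdha1, Pfkfb1, Pgd, Pfkfb3, Pfkp and Pgk1 were lost in 13, 12, 12, 9, 3 and 1 of the alternative settings.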

How the results depend on the processing

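The members called in each comparison give 101 called values. Of these 80 kept their call in all alternative settings that were run and 87 in every fit without 1 library, and none changed sign. The counts that follow come from refits whose shares of all genes called are not given here. They show only how far the members' calls moved. Between progenitors the count of 10 became 19 with library totals, 18 with limma-voom weights and 17 without 3 libraries chosen after seeing the data (perivascular progenitor 1, perivascular preadipocyte 1 and DPP4+ progenitor 2), and ran from 9 to 16 over fits without 1 library each, with the highest without perivascular preadipocyte library 1. In the inguinal step the count of 12 became 21 with limma-voom weights (7 higher, 14 lower), 23 with the inguinal libraries alone and 20 without the 3 libraries, and the cause was not tested. Over fits without 1 library it ran from 10 to 18. The counts of the perivascular step (20 to 32), of the preadipocytes (26 to 31) and of the interaction (19 to 33) stayed within 1.5 times their main value under every setting that was run. With the replicate block, which uses the pairing of libraries by pool, the counts were 10 between progenitors, 27 between preadipocytes, 26 in the perivascular step, 11 in the inguinal step and 20 in the interaction. The block ended 7 calls, those of G6pdx between preadipocytes, Hk1 in the inguinal step, Hk2 in the perivascular step and the interactions of Pdha1, Pfkfb1, Pfkfb3 and Pgd, and no other call among the members. With library totals the summed level of the members was 2831 CPM in DPP4+ progenitors, 3226 CPM in ICAM1+ preadipocytes and 3650 CPM in perivascular progenitors. With the longest transcript as the length, the Hk2 share was 15.9%, 19.1% and 10.7% in DPP4+ progenitors, ICAM1+ preadipocytes and perivascular progenitors, the Pfkl share 36.9%, 46.3% and 59.6%, and the Ldhb share 6.09%, 12.4% and 23.5%, with 39.3% in perivascular preadipocytes. Members below about 10 CPM, such as Slc2a3 and Aldoc, were measured with few counts, which limits what could be detected there.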

Other observations

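Several genes of the glycogen, transporter and regulator lists also differed. Ppp1r3d, a subunit that brings the protein phosphatase to glycogen, was 14.7-fold higher in perivascular than in ICAM1+ preadipocytes (log2 3.88 ± 0.54 (SE), adjusted p = 1.5e-04), while the related Ppp1r3c rose in the inguinal step (log2 1.78 ± 0.24 (SE), adjusted p = 2.2e-04). Mycn, a relative of Myc, was lower in perivascular cells at both stages (-3.01 log2 between progenitors and -2.31 log2 between preadipocytes). Ugp2, which makes the UDP-glucose used for glycogen, fell in the inguinal step from a mean of 438 CPM to 173 CPM (log2 -1.34 ± 0.16 (SE), adjusted p = 8.4e-05). Slc16a7, the high-affinity monocarboxylate transporter MCT2, rose in both steps (1.05 log2 in inguinal and 1.71 log2 in perivascular cells). Esrrg, an estrogen-related receptor, was higher in perivascular preadipocytes than in ICAM1+ preadipocytes (log2 3.28 ± 0.37 (SE), adjusted p = 3.7e-05).

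Marker genes of other cell types were low or moderate. Mast cell markers summed to 71.4 to 331 CPM in the 6 inguinal and 9.24 to 25.8 CPM in the 6 perivascular libraries, with the highest value in 1 DPP4+ library. Haematopoietic markers lay between 26.0 and 198 CPM, erythroid markers between 5.15 and 37.1 CPM and skeletal muscle markers between 9.63 and 20.9 CPM. Smooth muscle markers ran from 198 to 624 CPM. Schwann and neural markers were at 123 to 139 CPM in ICAM1+ preadipocytes and at 20.5 to 80.9 CPM elsewhere, and mesothelial markers at 140.2 to 257 CPM in perivascular progenitors and at 46.7 to 91.7 CPM elsewhere. The preadipocyte markers summed to 10189 to 11531 CPM in ICAM1+ preadipocytes and to 2946 to 3853 CPM in DPP4+ progenitors. In perivascular cells these markers summed to 4785 to 5504 CPM in progenitors and to 5002 to 7917 CPM in preadipocytes. Their part in the members' differences was not tested.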
